A study of Mus musculus with 80 samples.

Results

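The data describe the repressive histone mark H3K27me3 in control uterine fibroblasts at GD14.5 against GD8.5. GD is the day of gestation. Both groups were Kdm6b f/f, that is, they carried floxed Kdm6b alleles on a control genotype, had been mated to B6 males, and came from inter-implantation sites (IIS), the stretches of uterus between embryos. The GD14.5 list and the GD8.5 list each pool 3 samples, so 6 of the 80 samples of the series and 2 of its 16 peak lists make up the comparison. Tissue of the myometrium and endometrium was digested with enzymes, and fibroblasts were enriched on magnetic beads before CUT&RUN, a method that cuts out the DNA around a histone mark with a nuclease tethered to an antibody. The age of the mice and whether the 3 samples of a list are separate animals are not given in the labels. The comparison asks how the mark at GD14.5 differs from that at GD8.5 in fibroblasts with intact Kdm6b, in a series on the timing of birth.

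H3K27me3 is written by Polycomb repressive complex PRC2 and lies over genes that are held silent, often in broad domains. Kdm6b is a demethylase that removes it. Endometrial fibroblasts turn into decidual cells around each implanting embryo, and fibroblasts between the sites and in the muscle layer remain through pregnancy. In the pregnant uterus, genes for contraction, such as those for prostaglandin synthesis and gap junctions, are known to be kept low until term.

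Each value below is a coverage, the percent of a gene's span with 2 kb added on either side, or of a 10-kb bin of the genome, that lies inside the authors' peaks. Differences are GD14.5 minus GD8.5, in percentage points. With 1 pooled list on each side there is no replicate check, so no test or p-value is given; a gene or bin is called gained or lost when its coverage is at least 50 points higher or lower at GD14.5. The other 10 lists of the Kdm6b experiments, each from 3 other samples, give each gene's value outside the comparison. Of these, 4 are controls: GD5.5 IIS, GD14.5 implantation sites (IS), a second GD14.5 IS list deposited as the control of a Pdgfra-Cre experiment and called the Pdgfra-Cre set here, and GD18.5 IS. Early lists below are GD5.5 and GD8.5, and late lists are GD14.5 and GD18.5. Outside the comparison the late control lists are all from implantation sites, so stage and site cannot be told apart there. Where a gene was chosen for its difference, its GD8.5 and GD14.5 IIS values are apart by that choice. In pooled tissue, fewer cells of a type and less of the mark per cell cannot be told apart.

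Over the 12 lists of the Kdm6b experiments, covered length ran between 609 and 740 Mb and the number of peaks between 221350 and 287629. The median fold of a peak over its local background, as the authors' caller gave it, lay between 1.12 and 1.15 in all 12, and only 144 to 1837 peaks a list reached a −log10 q of 2, so most of the covered length is of weak peaks. The weakest peak of each list had a −log10 p between 0.340 and 0.349, so the lists were called loosely. Sequencing depth is unknown. The label was checked on cell type markers, which should be free of the mark where they are active. The 19 fibroblast markers averaged 2.70% coverage at GD14.5 and 1.74% at GD8.5, and 14 broadly active genes averaged 7.48% and 6.24% at the same stages. Epithelial markers averaged 83.0% at GD14.5 and 78.0% at GD8.5, immune markers 66.6% and 64.4%, nerve markers 66.8% and 66.2%, mesothelial markers 63.3% and 59.1%, trophoblast markers 53.1% and 52.9%, endothelial markers 51.5% and 45.3%, and smooth muscle markers 28.6% and 27.4%. Fibroblast genes were thus nearly free of the mark and those of most other cell types largely covered, in both lists. Pgr, the progesterone receptor gene, was at 0 in both, and Kdm6b was at 1.07% at GD14.5 and 0 at GD8.5.

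Some promoters stood wholly inside peaks at one stage and wholly outside at the other. The sequences below, from RefSeq on build GRCm38.p6 (the same coordinates as mm10), run from 250 bases before to 50 bases after the start of the gene, 5′ to 3′, with each CG dinucleotide in capitals, because CG-rich promoters are the usual landing place of Polycomb complexes. Mt2 encodes a metallothionein, Gja1 the gap junction protein connexin 43, and Lfng a sugar transferase that acts on Notch receptors; these 3 and Srgap1 were inside peaks at GD8.5 and outside at GD14.5. They were picked with their values in view.
Mt2 promoter, chr8:94172368-94172667, plus strand: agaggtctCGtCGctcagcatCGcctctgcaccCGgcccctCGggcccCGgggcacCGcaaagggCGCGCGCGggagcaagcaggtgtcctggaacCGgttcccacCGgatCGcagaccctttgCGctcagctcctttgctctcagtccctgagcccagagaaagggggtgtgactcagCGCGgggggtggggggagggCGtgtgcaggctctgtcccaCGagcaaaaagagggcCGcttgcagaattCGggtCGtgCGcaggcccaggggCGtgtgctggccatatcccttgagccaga
Gja1 promoter, chr10:56377050-56377349, plus strand: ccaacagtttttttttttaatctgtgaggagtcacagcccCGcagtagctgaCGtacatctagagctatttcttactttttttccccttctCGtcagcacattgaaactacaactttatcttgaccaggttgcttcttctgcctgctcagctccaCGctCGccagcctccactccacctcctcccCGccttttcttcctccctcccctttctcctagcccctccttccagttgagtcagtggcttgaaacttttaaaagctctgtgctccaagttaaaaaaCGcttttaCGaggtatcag
Lfng promoter, chr5:140607091-140607390, plus strand: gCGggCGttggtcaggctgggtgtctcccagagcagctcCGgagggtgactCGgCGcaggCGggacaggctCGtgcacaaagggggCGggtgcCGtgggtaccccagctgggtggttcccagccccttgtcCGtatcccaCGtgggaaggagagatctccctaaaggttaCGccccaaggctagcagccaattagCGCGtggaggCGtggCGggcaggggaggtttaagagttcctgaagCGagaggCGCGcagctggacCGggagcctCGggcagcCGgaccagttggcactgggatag
Srgap1 promoter, chr10:122047266-122047565, minus strand: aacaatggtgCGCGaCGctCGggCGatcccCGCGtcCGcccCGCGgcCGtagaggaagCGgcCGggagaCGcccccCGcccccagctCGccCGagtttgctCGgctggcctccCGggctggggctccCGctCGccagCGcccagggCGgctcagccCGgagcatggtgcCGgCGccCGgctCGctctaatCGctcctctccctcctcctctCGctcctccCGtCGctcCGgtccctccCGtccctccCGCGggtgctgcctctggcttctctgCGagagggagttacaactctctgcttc
The Mt2 window holds 24 CG, Lfng 22, Srgap1 37 and Gja1 8, against a median of 13 over all 21020 promoter windows. In the opposite class, inside peaks at GD14.5 and outside at GD8.5, were Asprv1, an epidermal protease gene, and a start of Ly6g6d, a Ly6-family surface protein gene of the major histocompatibility region.
Asprv1 promoter, chr6:86627924-86628223, plus strand: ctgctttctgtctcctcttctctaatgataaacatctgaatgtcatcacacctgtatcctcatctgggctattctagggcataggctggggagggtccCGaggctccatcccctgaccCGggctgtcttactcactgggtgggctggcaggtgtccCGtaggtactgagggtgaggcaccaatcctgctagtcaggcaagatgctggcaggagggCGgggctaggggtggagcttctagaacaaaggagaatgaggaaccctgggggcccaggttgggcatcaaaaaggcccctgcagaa
Ly6g6d promoter, chr17:35081190-35081489, minus strand: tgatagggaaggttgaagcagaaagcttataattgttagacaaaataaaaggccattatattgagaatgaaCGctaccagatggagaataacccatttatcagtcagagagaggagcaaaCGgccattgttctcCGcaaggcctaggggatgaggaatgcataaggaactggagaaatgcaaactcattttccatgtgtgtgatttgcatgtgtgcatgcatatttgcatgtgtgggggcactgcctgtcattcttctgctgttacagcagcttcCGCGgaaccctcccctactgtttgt
These windows hold 4 CG in Asprv1 and 5 in Ly6g6d, so both lie below the median of all promoters.

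The lost promoters shown are not typical of their class. Of the 21020 windows, 662 were inside peaks at GD14.5 and outside at GD8.5, and 341 the reverse. Each of these classes had a median of 5 CG, against 8 in the 4560 windows inside peaks at both stages and 17 in the 13878 outside at both. A count of at least 15 CG was met by 20.2% of the windows inside at GD14.5 alone, by 22.3% of those inside at GD8.5 alone and by 47.3% of all windows. Promoters that moved in or out of peaks were therefore mostly CG-poor, and the CG-rich ones shown are a minority among them. In all, 26.6% of promoters lay inside peaks at GD14.5 and 24.6% at GD8.5.

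A part of the 341 promoters inside peaks at GD8.5 alone was also outside peaks in every other late control list. That held for 74 of them over the GD14.5 IS lists of both control sets and the GD18.5 IS list, and 27 of the 74 were inside peaks at GD5.5, against 177 (51.9%) of the 341. Besides Mt2, Lfng and Srgap1 the 74 include Osmr, the oncostatin M receptor gene, Prlr, the prolactin receptor gene, Vcan, which encodes the matrix proteoglycan versican, and Col15a1, a basement membrane collagen gene. These names were picked with their values in view, and all are among the 27. Members outside peaks at GD5.5 include olfactory and vomeronasal receptor promoters, such as those of Olfr1126 and Vmn1r196. Other Prlr windows were at 0 at both compared stages. Being outside peaks is common, since 66.0% of all windows were outside at both compared stages.

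More of the genome lay inside peaks at GD14.5, and less of it inside strong peaks. Peaks covered 731 Mb at GD14.5 and 680 Mb at GD8.5, a difference of 50.2 Mb, with 273890 peaks at GD14.5 and 238000 at GD8.5. Median peak width was 1169 bp at GD14.5 and 1185 bp at GD8.5. Among peaks at or above a −log10 p of 1.3 the order turned, with 186 Mb at GD14.5 and 232 Mb at GD8.5. At or above a −log10 q of 2 it was 5.24 Mb in 390 peaks at GD14.5 and 26.2 Mb in 1421 peaks at GD8.5. The additional length at GD14.5 was thus in weak peaks. The caller's p and q move with read depth, which is unknown, and its part in these counts was not tested.

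The places that were strong at GD8.5 were still marked at GD14.5. Of the length in GD8.5 peaks that reached a −log10 q of 2, 97.8% lay inside GD14.5 peaks and 18.6% inside GD14.5 peaks of the same strength. The latter share is bounded by the 5.24 Mb of such GD14.5 peaks. Of those 5.24 Mb, 92.9% lay inside GD8.5 peaks of the same strength. Over the length of the strong GD8.5 peaks the length-weighted fold was 1.83 at GD14.5 and 1.98 at GD8.5. The other control lists had 1.87 at GD5.5, 1.84 and 2.04 in the GD14.5 IS lists and 1.79 at GD18.5. That length was chosen for its strength at GD8.5, so the GD8.5 fold is raised by the choice. Strong peaks touched 415 of all 21631 genes at GD14.5 and 1558 at GD8.5. Among homeobox genes outside the Hox clusters, developmental regulators that are classic Polycomb targets, strong peaks touched 6 of 99 at GD14.5 and 28 at GD8.5. For cadherin and protocadherin genes the counts were 0 of 92 at GD14.5 and 23 at GD8.5. Both families have to be read against the fall over all genes, and whether they fell further was not tested. Coverage of the homeobox genes barely differed, at 87.3% at GD14.5 and 86.5% at GD8.5, and none of the 99 differed by 25 points.

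**Figure D1:**
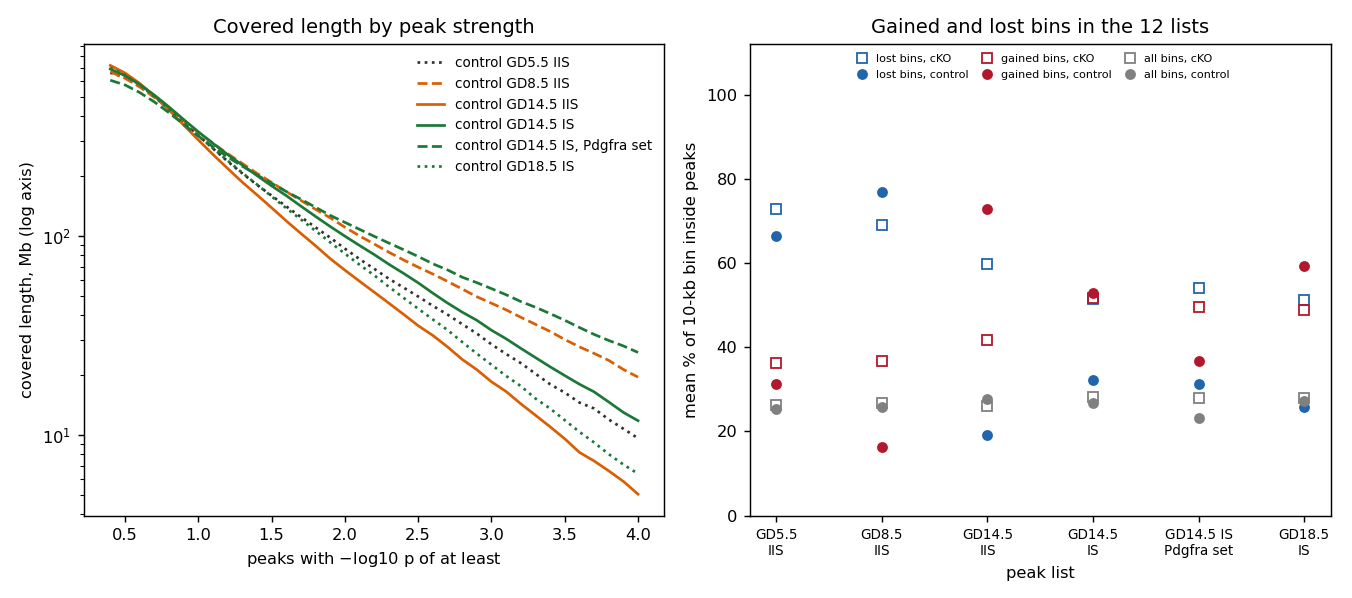
Left, covered length in Mb (log axis) of the peaks at or above each −log10 p, in the 6 control lists; the GD14.5 IIS line starts highest and ends lowest. Right, mean coverage of the 214 lost bins, the 579 gained bins and all bins in each list, as open squares for the cKO list and filled circles for the control list of each stage; lost bins average 19.2% in GD14.5 IIS controls and 76.7% in GD8.5 controls.

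Most genes hardly differed. Mean coverage over 21631 protein-coding genes of chromosomes 1 to 19 and X was 25.1% at GD14.5 and 23.0% at GD8.5, a mean difference of 2.11 points with an SD over genes of 8.61, which turned to -0.86 points with the −log10 p limit of 1.3. The median difference was 0, with 7894 genes higher at GD14.5, 4010 lower and 9727 equal, of which 9017 were at 0 in both lists. By the 50-point rule 58 genes were gained, 0.268% of all, and 9 were lost, 0.0416%. The order of the counts rests on the weak peaks: they were 124 gained and 70 lost at an equal covered length of 487 Mb in every list, but 96 and 216 with the −log10 p limit of 1.3 and 2 and 344 with the −log10 q limit of 2. At 25 points the counts were 560 gained (2.59%) and 109 lost (0.504%). These shares have to be read against lists of 1 stage: between the 2 control lists of GD14.5 IS, 65 genes (0.3%) were higher by 50 points in the first and 9 (0.0416%) were lower. The number of genes past the rule was thus no larger between GD14.5 and GD8.5 than between 2 control lists of 1 stage and site. Those 2 lists cover 703 and 609 Mb, further apart than the compared lists at 731 and 680 Mb. Their counts are not given at equal covered length.

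The genes past the rule were short, since a short window needs little length to cross it. Their windows had a median of 5.19 kb in the gained genes and 4.96 kb in the lost ones, against 21.3 kb over all genes. Of the 58 gained genes, 22 are olfactory or vomeronasal receptor genes, 6 have predicted symbols and 30 have other names; over all 21631 genes 1465 are olfactory or vomeronasal receptor genes and 1512 have predicted symbols. The 9 lost genes comprise 1 olfactory receptor gene, 3 with predicted symbols, and Penk, Mt2, Dbpht2, Krtap19-2 and H2ab2. With every list brought to the equal covered length, taking peaks from the lowest p upward, 15 gained and 3 lost genes met the rule both ways; Penk and Mt2 are the 2 lost genes with names among the 3.

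**Figure D2:**
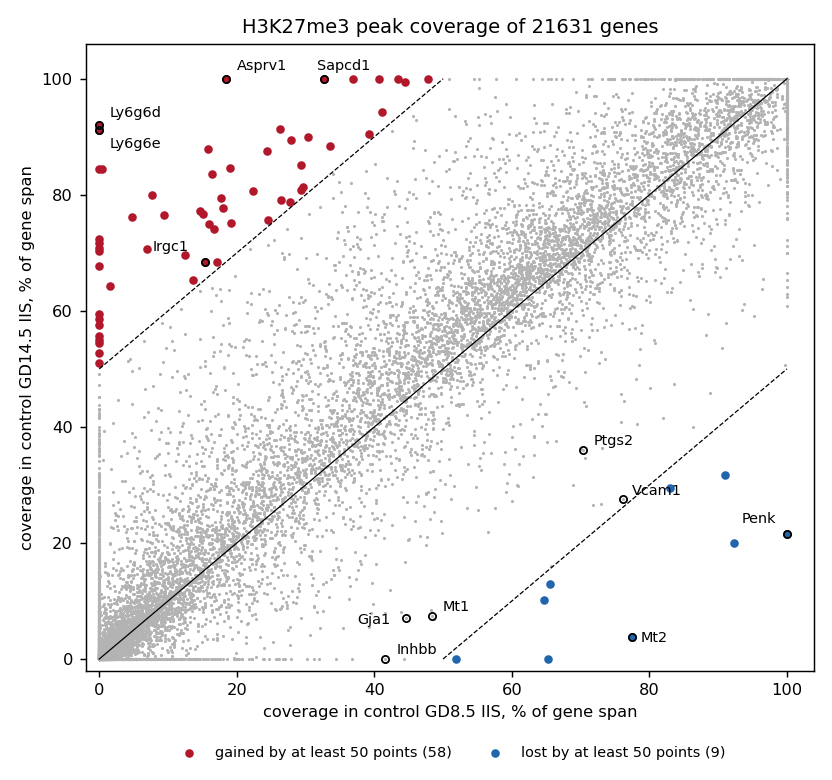
Coverage of each of 21631 genes (% of its span, 2-kb flanks included), at GD14.5 on the vertical axis against GD8.5 on the horizontal axis, in control IIS fibroblasts. Dashed lines mark 50 points; 58 genes lie above the upper line and 9 below the lower one, and Ly6g6d and Ly6g6e sit at 0 at GD8.5 and above 90% at GD14.5.

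Penk encodes proenkephalin, the precursor of the enkephalin opioid peptides. Its span (chr4:4133536-4138815 in mm10, window 9.28 kb) was 21.5% covered at GD14.5 and 100% at GD8.5, a difference of -78.5 points. The GD8.5 list has 1 peak of 14.9 kb there, with a fold of 1.32 and a −log10 p of 1.24, and the GD14.5 list has 3 peaks of which the widest is 1.20 kb. Coverage in the other control lists was 93.5% at GD5.5, 8.52% and 18.2% in the GD14.5 IS lists of the first and the Pdgfra-Cre set, and 14.3% at GD18.5. Both early lists therefore held a broad domain over Penk and all 4 late control lists held fragments. The peaks are weak: with a −log10 p of at least 1.3 required, neither stage of the comparison had any peak over the Penk window.

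Mt1 and Mt2 encode metallothioneins, metal-binding stress proteins, and lie side by side on chromosome 8 with the brain-type member Mt3. Mt2 (chr8:94172618-94173567) was 3.80% covered at GD14.5 and 77.5% at GD8.5. Mt1 (chr8:94178883-94180327) was 7.33% covered at GD14.5 and 48.3% at GD8.5. The Mt1 promoter window, unlike that of Mt2, was outside peaks at both stages. Mt3 was 100% covered at both stages, so the difference did not extend to it. In the other control lists Mt2 had 90.4% at GD5.5, 5.90% and 37.6% in the GD14.5 IS lists and 0 at GD18.5, and Mt1 had 38.2%, 16.1%, 45.6% and 0 in the same order. The Pdgfra-Cre set's control list thus kept more of the mark at these genes than the other late control lists. A single GD8.5 peak of 6.99 kb with a fold of 1.20 accounts for most of the Mt2 coverage, and no peak at either gene reached a −log10 p of 1.3 at either stage.

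**Figure D3:**
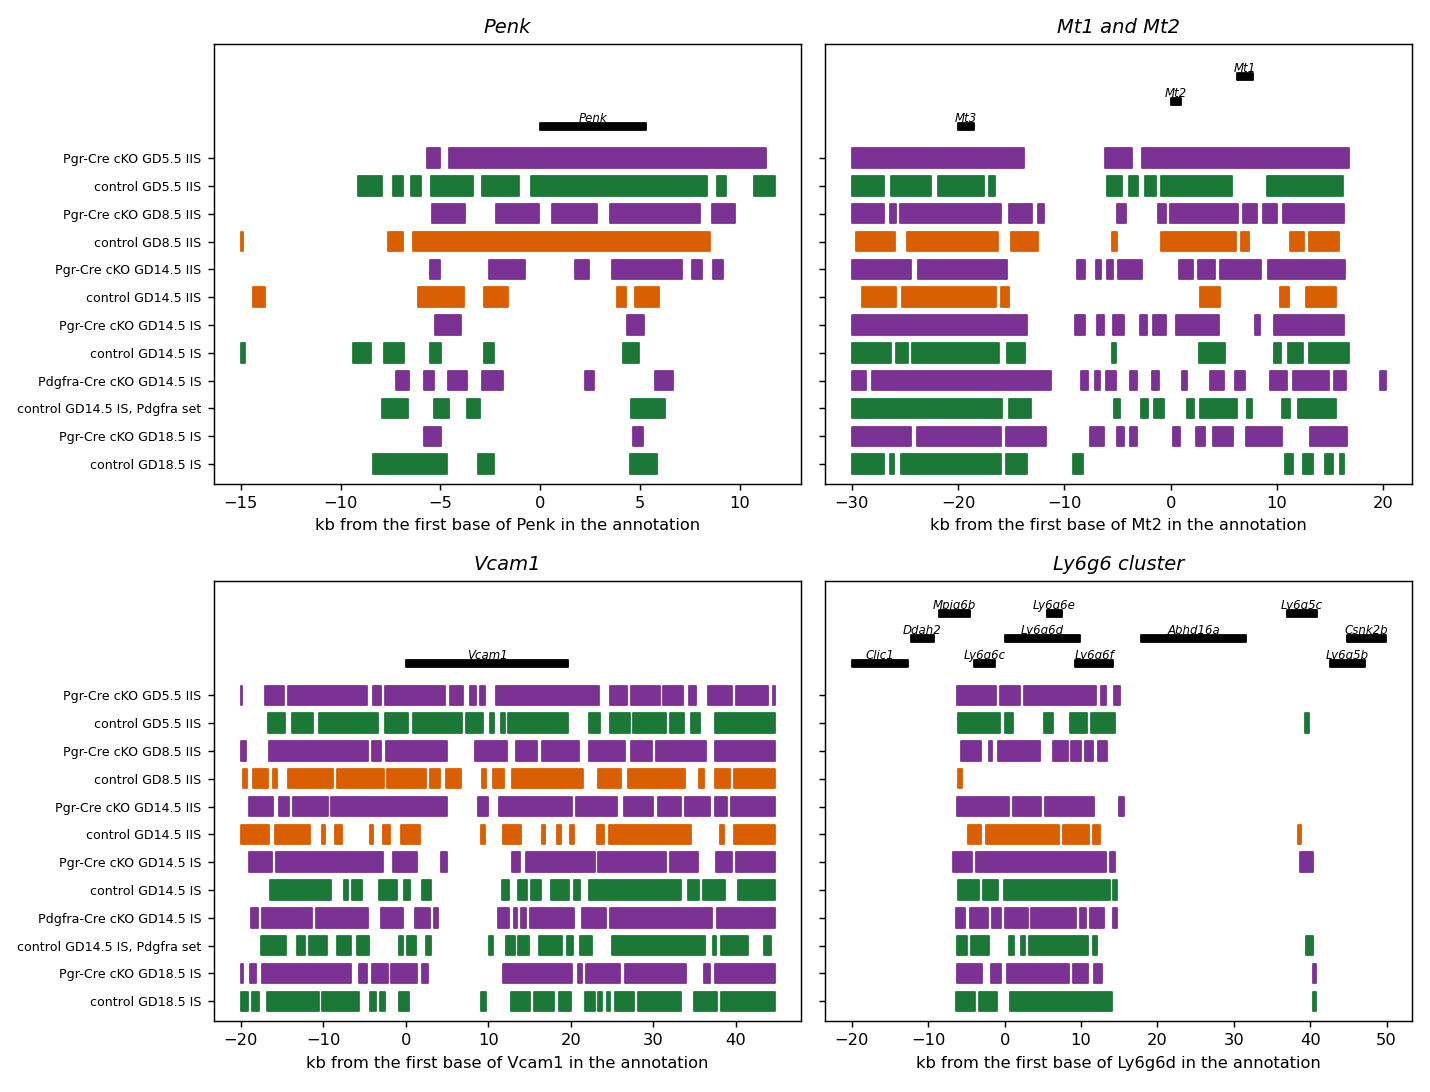
Peaks of the 12 lists (rows; cKO above control at each stage, purple cKO, orange the compared controls, green the other controls) over Penk, Mt1 and Mt2, Vcam1 and the Ly6g6 cluster, by distance in kb from the first base of the named gene. The 14.9-kb domain over Penk at GD8.5 is reduced to fragments at GD14.5, and the Ly6g6 genes are bare of peaks at GD8.5 except for 6.99% of Ly6g6c.

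Of 33 genes for uterine contraction and parturition, 2 were lower by 25 points, 6.06% against 0.504% of all genes, and none higher. The 2 were Gja1 and Ptgs2. The list's mean coverage was 28.9% at GD14.5 and 29.4% at GD8.5, against a mean difference of 2.11 points over all genes, and 15 members were higher at GD14.5 and 9 lower. Gja1 (chr10:56377300-56390419), whose gap junctions couple uterine cells before labour, was 7.02% covered at GD14.5 and 44.5% at GD8.5. Its GD8.5 peak of 9.71 kb had a fold of 1.26, and the GD14.5 peak measured 1.20 kb. Gja1 was at 50.2% at GD5.5, at 0 and 15.6% in the GD14.5 IS lists and at 0 at GD18.5. Gja1 was thus 44.5% to 50.2% covered in the early control lists and no more than 15.6% in the late ones. These peaks are weak too, with a highest −log10 p of 0.439 at GD14.5 and 1.01 at GD8.5.

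Ptgs2 (chr1:150100031-150108234), the inducible cyclooxygenase of prostaglandin synthesis, was 35.9% covered at GD14.5 and 70.3% at GD8.5. It was at 74.1% at GD5.5, 26.4% and 11.1% in the GD14.5 IS lists and 23.9% at GD18.5, so its early and late control values did not overlap. No peak over Ptgs2 passed a −log10 p of 0.664 at GD14.5 or 0.814 at GD8.5. The Ptgs2 promoter window was still 79% inside peaks at GD14.5, against 100% at GD8.5. The oxytocin receptor gene Oxtr had 9.17% at GD14.5 and 17.7% at GD8.5. Members that were higher included Ptger3, a prostaglandin E receptor gene, with 47.4% at GD14.5 and 32.0% at GD8.5, and the adrenergic receptor genes Adra1b (67.5% and 52.6%) and Adra2a (98.2% and 83.6%) at the same stages. The prostacyclin receptor gene Ptgir and the prostaglandin dehydrogenase gene Hpgd were at 0 at both stages.

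Kcnma1, the gene of the large-conductance calcium-activated potassium channel that relaxes uterine muscle, lost the greatest covered length of any gene, 135 kb. Over its 717-kb window (chr14:23292288-24005110 without flanks) coverage was 15.9% at GD14.5 and 34.8% at GD8.5, below the 25-point rule because of its length. Of the 72 bins along Kcnma1, 10 were at least 50% covered at GD14.5 and 25 at GD8.5; 9 bins were lost and 0 gained. Kcnma1 was at 35.9% at GD5.5, 5.24% and 2.51% in the GD14.5 IS lists and 1.96% at GD18.5. The GD14.5 IIS value therefore lay between the early and the other late control lists. The 2 longest runs of lost bins in the genome, where a run may bridge 1 bin that is not called, are both in Kcnma1. Across chr14:23800001-23850000 coverage was 10.8% at GD14.5 and 70.1% at GD8.5, with 69.2% at GD5.5 and 0 in the other 3 late control lists, and across chr14:23630001-23680000, of whose 5 bins 3 were called, it was 5.13% at GD14.5 and 42.2% at GD8.5. Over all 92 potassium channel genes the mean went the other way, 50.9% at GD14.5 and 47.8% at GD8.5.

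**Figure D4:**
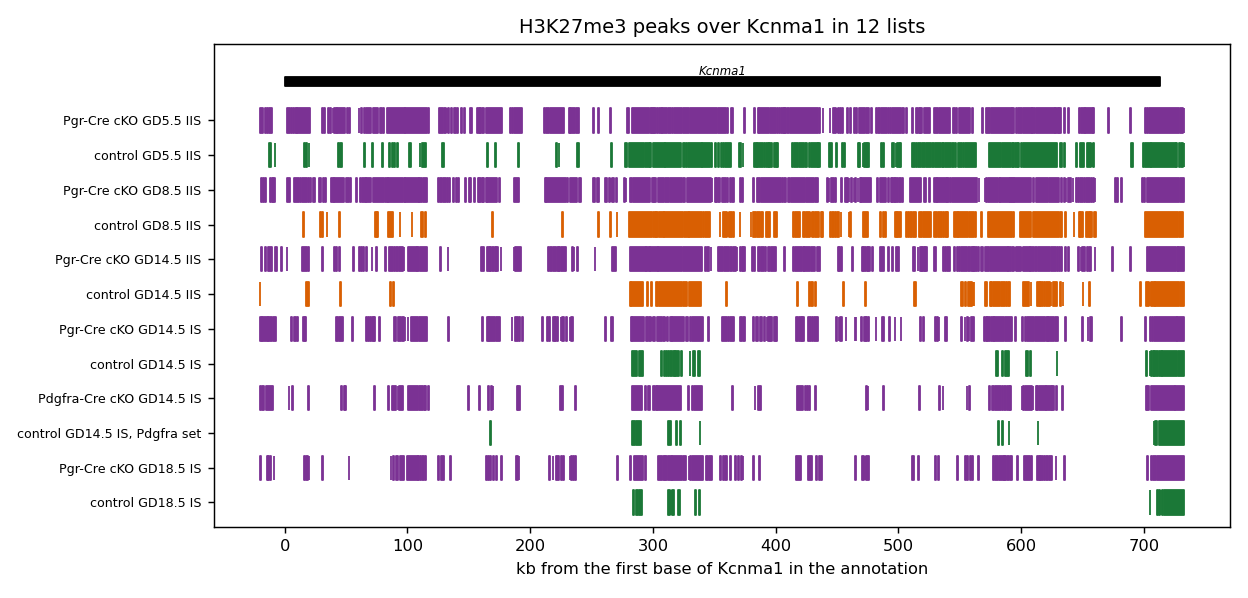
Peaks of the 12 lists over Kcnma1, by distance in kb from the first base of the gene in the annotation; colours as in the maps of Penk and the Mt genes. In controls the mark fills much of the gene at GD5.5 and GD8.5 (35.9% and 34.8%) and is 15.9% at GD14.5 IIS and 1.96% at GD18.5.

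Other long genes with large losses were read off a ranking by covered length and so were picked with their values in view. Slit3, which encodes a secreted axon and cell guidance ligand, had 31.9% at GD14.5 and 44.2% at GD8.5, a loss of 72.6 kb. Tox, a nuclear factor gene of T-cell development, had 28.4% at GD14.5 and 47.5% at GD8.5. Efna5, an ephrin ligand gene, had 13.2% at GD14.5 and 32.9% at GD8.5. Srgap1 had 2.84% at GD14.5 and 21.3% at GD8.5. At GD5.5 the 4 genes had 57.3% (Slit3), 46.2% (Tox), 44.7% (Efna5) and 42.8% (Srgap1). At GD18.5 they had 19.3% (Slit3), 11.3% (Tox), 3.54% (Efna5) and 1.18% (Srgap1). In each of these 4 GD14.5 IIS lay below both earlier lists and above GD18.5. The GD14.5 IS lists had 18.9% and 24.4% (Slit3), 13.8% and 17.4% (Tox), 5.44% and 6.46% (Efna5) and 1.01% and 3.78% (Srgap1). Most of these were also below GD14.5 IIS, so stage and site cannot be told apart in this order. At equal covered length the Srgap1 difference came to -5.55 points from -18.5. Those of Slit3, Tox and Efna5 were -12.0, -22.4 and -13.8 points. Other genes of the ranking lacked that order: L3mbtl4 had 22.4% at GD14.5 and 36.7% at GD8.5 but 23.1% at GD5.5, Diaph2 63.9% and 72.0% but 63.4%, and Agbl1 33.6% and 39.4% but 29.3%, in the same order of stages.

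Decidualization and progesterone response genes were the list with the largest mean loss, with 25.9% at GD14.5 and 30.1% at GD8.5 over 35 genes. The median difference was 0, with 9 genes higher and 12 lower, so the mean rests on few genes, and Mt1 and Mt2 are neighbours. By 25 points 3 were lower (8.57%, against 0.504% of all genes), Mt2, Mt1 and Inhbb. The 1 that was higher (2.86%, against 2.59% of all genes) was Hand2, a progesterone-induced transcription factor of the stroma. Hand2 had 28.8% at GD14.5 and 2.04% at GD8.5, was at 0 in 3 of the other 4 control lists, and had 23.6% in the Pdgfra-Cre set's control list. Its difference of 26.7 points came to 11.2 with 5-kb flanks and to 0 at equal covered length or with the −log10 p limit of 1.3. Among members under the rule, Fkbp5, a progesterone-induced chaperone of steroid receptors, had 27.1% at GD14.5 and 46.1% at GD8.5, and 0 at GD18.5. The gap junction gene Gjb2 had 80.1% at GD14.5 and 100% at GD8.5, but 100% again at GD18.5. The hormone receptor genes Pgr and Esr1 and the uterine patterning genes Hoxa10 and Hoxa11 were at 0 at both stages.

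Among 42 genes of the BMP, GDF and activin family and its antagonists, 2 were lower by 25 points and none higher. The 2 are 4.76% of the list, against 0.504% of all genes. Inhbb, the activin B subunit gene, was at 0 at GD14.5 and 41.6% at GD8.5, and had 69.1% at GD5.5, 0 and 11.1% in the GD14.5 IS lists and 0 at GD18.5. The Inhbb promoter window was inside peaks at GD5.5 and already outside them at GD8.5. Fst encodes follistatin, which binds and blocks activins, and had 43.6% at GD14.5 and 70.7% at GD8.5. It lay in a GD8.5 peak of 32.1 kb, and the widest GD14.5 peak was 2.31 kb. Fst had 77.0% at GD5.5, 27.7% and 64.5% in the GD14.5 IS lists and 11.9% at GD18.5, so its late values spread widely. The other activin subunit gene, Inhba, had 59.2% at GD14.5 and 65.9% at GD8.5. The family's mean was 44.4% at GD14.5 and 43.2% at GD8.5, so its losses were these 2 genes and not a shift of the list.

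Vcam1 encodes an adhesion molecule for leukocytes and came just short of the 50-point rule. Its coverage was 27.6% at GD14.5 and 76.1% at GD8.5, with 77.8% at GD5.5, 37.1% and 38.4% in the GD14.5 IS lists and 34.5% at GD18.5. Lfng had 5.31% at GD14.5 and 32.0% at GD8.5, with 33.0% at GD5.5, 9.66% and 0 in the GD14.5 IS lists and 0 at GD18.5. Mchr1, the receptor gene for melanin-concentrating hormone, had 60.9% at GD14.5 and 100% at GD8.5, with 100% at GD5.5, 37.8% and 37.0% in the GD14.5 IS lists and 42.8% at GD18.5. For these 3 genes, which were picked with their values in view, the early and the late control values did not overlap. All 109 genes lower by 25 points separated far less, with means of 48.3% at GD5.5 and 43.5% at GD18.5. In the GD14.5 IS lists they averaged 44.0% and 36.7%. Of the 109, 61 and 83 in the GD14.5 IS lists and 65 at GD18.5 lay nearer to their GD14.5 IIS value than to their GD8.5 value. The widest peak touching Mchr1 was still 25.4 kb at GD18.5, against 25.2 kb at GD8.5. The Mchr1 promoter window was wholly inside peaks in every control list. For Vcam1, Lfng and Inhbb the difference was 0 with the −log10 p limit of 1.3, which no peak over them reached at either stage. The fibroblast marker Pdgfra itself, with 13.9% at GD14.5 and 31.0% at GD8.5, had 34.6% at GD5.5 and lay below both early values in all 4 late control lists.

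The remaining named genes past the 50-point loss did not separate early from late control lists. Dbpht2 had 12.9% at GD14.5 and 65.5% at GD8.5, but 85.1% and 88.9% in the GD14.5 IS lists. H2ab2, an H2A histone gene on the X chromosome, was at 0 at GD14.5 and 65.3% at GD8.5, with 16.4% at GD5.5 and 50.5% in a GD14.5 IS list. Krtap19-2, a hair keratin-associated protein gene, had 10.1% at GD14.5 and 64.6% at GD8.5, with 10.5% at GD5.5. In H2ab2 and Krtap19-2 the GD8.5 list was above every other control list, and in Dbpht2 the GD14.5 IIS list was below every other.

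**Figure D5:**
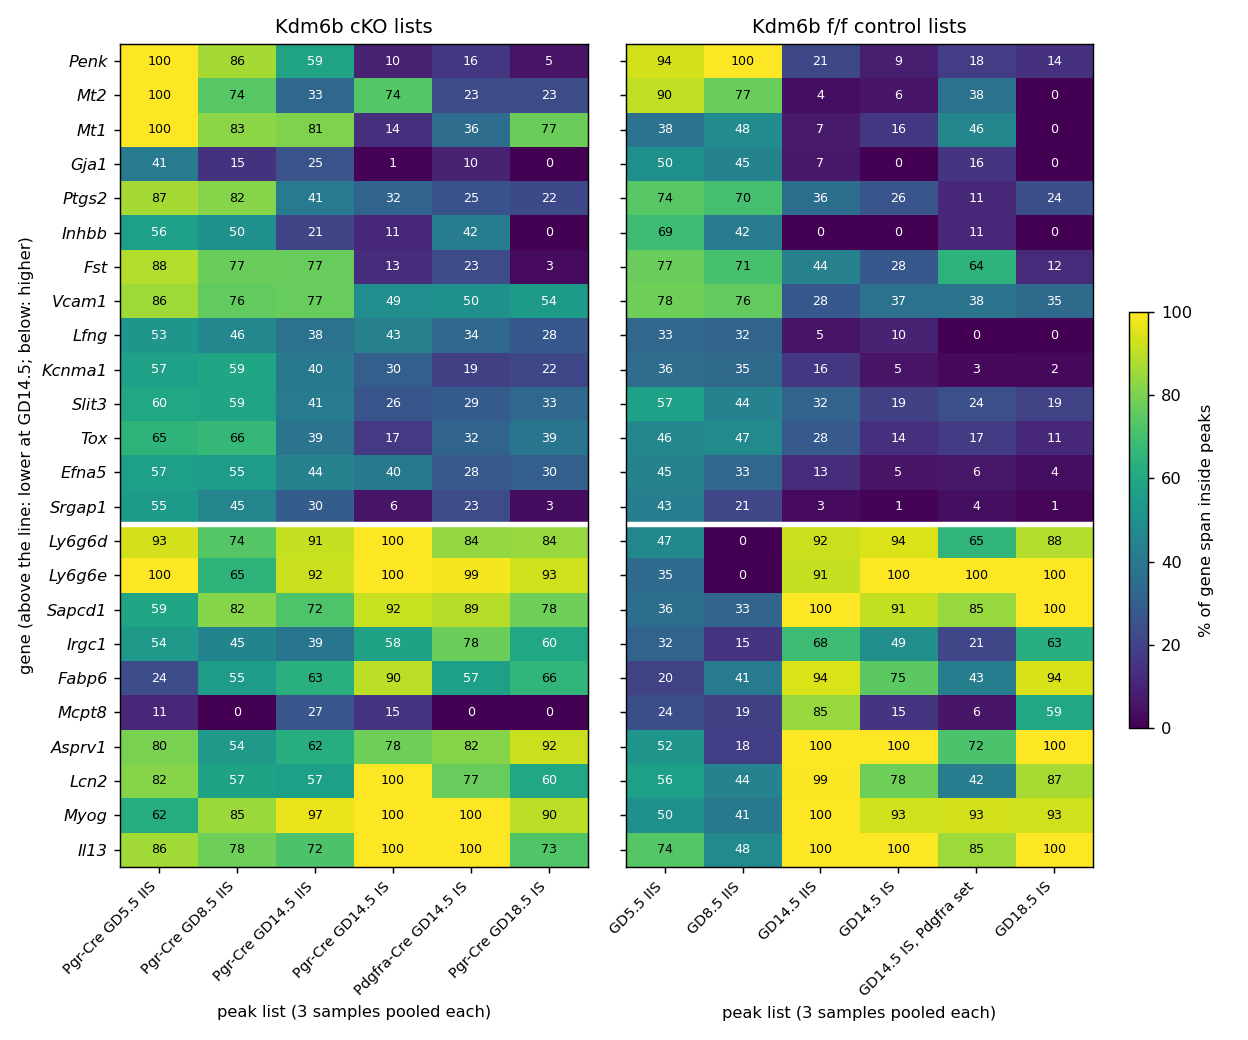
Coverage (% of the span, 2-kb flanks included) of 14 genes lower at GD14.5 and 10 higher, in the 6 cKO lists and the 6 control lists, by stage and site. In controls most of the upper block is higher at GD5.5 and GD8.5 than from GD14.5 on, as in Penk, with 21.5% at GD14.5 IIS and 100% at GD8.5; exceptions are Fst, with 64.5% in a GD14.5 IS list, and Mt1, with 45.6% in a GD14.5 IS list and 38.2% at GD5.5.

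The largest gain by covered length, among genes that met the 50-point rule both as deposited and at equal covered length, was in the Ly6g6 cluster of the major histocompatibility region on chromosome 17. Ly6g6d (chr17:35071342-35081239) was 92.1% covered at GD14.5 and at 0 at GD8.5. Its neighbour Ly6g6e was at 91.1% at GD14.5 and 0 at GD8.5, Ly6g6c at 70.7% and 6.99%, and Ly6g6f at 47.2% and 0, at the same stages. The 4 genes share peaks: the GD14.5 list has 3 over the Ly6g6d window, of which the widest is 9.53 kb with a fold of 1.24 and a −log10 p of 0.909, and the GD8.5 list has none. With the −log10 p limit of 1.3 all 4 differences were 0, and that of Ly6g6f was also 0 at equal covered length. Coverage of Ly6g6d was 46.8% at GD5.5, 94.4% and 65.4% in the GD14.5 IS lists and 88.3% at GD18.5. Ly6g6c had 90.6% at GD5.5, so GD8.5 was the low list at this cluster and not the earlier stages as a group.

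Sapcd1, also in the region, was 100% covered at GD14.5 and 32.7% at GD8.5, and next to it Vwa7 had 46.6% at GD14.5 and 6.58% at GD8.5. Over the Ly6 list of 32 genes, mean coverage was 57.9% at GD14.5 and 43.6% at GD8.5, and 5 were higher by 25 points and none lower. The fifth besides the Ly6g6 genes was Ly6g, the neutrophil surface marker gene on chromosome 15, with 63.8% at GD14.5 and 17.6% at GD8.5. The 5 are 15.6% of the list, against 2.59% of all genes, and 4 of them are neighbours under shared peaks.

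Other genes met the same rule. Asprv1 was 100% covered at GD14.5 and 18.4% at GD8.5, with 52.3% at GD5.5 and 100% at GD18.5, but its difference turned to -11.2 points when only peaks at or above a −log10 p of 1.3 were counted. Myog, the muscle-specific transcription factor myogenin, had 100% at GD14.5 and 40.6% at GD8.5. Il13, the type 2 cytokine gene, had 100% at GD14.5 and 47.8% at GD8.5. Lcn2, which encodes the iron-scavenging protein lipocalin 2, had 99.5% at GD14.5 and 44.5% at GD8.5. Fabp6, an ileal bile acid binding protein gene, had 94.2% at GD14.5 and 41.1% at GD8.5. Irgc1, an interferon-inducible GTPase family gene, had 68.5% at GD14.5 and 15.3% at GD8.5. Each of these 6 was higher in the GD18.5 control list than at GD8.5. The rule chose genes low at GD8.5, so this order says little about stage. Their GD5.5 peaks were mixed. The Lcn2 promoter was inside peaks at GD5.5 and outside at GD8.5. The highest fold over Irgc1 was 1.57 at GD5.5, 1.08 at GD8.5 and 1.52 at GD14.5. The widest peak over Myog was 9.47 kb at GD5.5, 16.1 kb at GD8.5 and 35.4 kb at GD14.5. In the same order it was 11.5, 12.1 and 19.8 kb over Il13 and 4.79, 5.00 and 16.6 kb over Fabp6. The highest fold, however, was lower at GD14.5 than at GD8.5 over Myog (1.39 and 1.42) and Il13 (1.61 and 1.73). It was also lower over Fabp6 (1.23 and 1.28) and Asprv1 (1.19 and 1.42). The promoter windows of Myog and Fabp6 were inside peaks at both of these stages. Mcpt8, a basophil protease gene, had 84.6% at GD14.5 and 19.1% at GD8.5, but 15.5% and 6.13% in the GD14.5 IS lists, so its gain was not seen there. With the same −log10 p limit the differences of Lcn2, Fabp6 and Mcpt8 were 0, and those of Myog and Il13 were 67.5 and 55.6 points.

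Gains in long genes were read off the same ranking by length. Smyd3, a lysine methyltransferase gene, had 16.4% at GD14.5 and 4.92% at GD8.5, and its neighbour Kif26b, a kinesin family gene, had 53.5% at GD14.5 and 39.9% at GD8.5. The zinc finger gene Zfp423, a regulator of fat cell precursors, had 40.5% at GD14.5 and 19.7% at GD8.5. Zfp423 was at 13.8% at GD5.5, 49.9% and 43.8% in the GD14.5 IS lists and 45.3% at GD18.5, and Smyd3 was at 6.60%, 27.1%, 24.8% and 29.6% in the same order. In Zfp423 and Smyd3 the 2 early control lists were below all 4 late ones.

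Among gene families, keratin-associated protein genes had the next largest mean difference, with 58.0% at GD14.5 and 48.0% at GD8.5. By 25 points 13 of 56 (23.2%) were higher and 3 (5.36%) lower, against 2.59% and 0.504% of all genes. At equal covered length, however, the mean difference was -0.77 points. Krtap21-1 had 100% at GD14.5 and 43.4% at GD8.5, with 11.9% at GD5.5, and no difference was left once lists had equal covered length or the −log10 p limit of 1.3 was set. Cytochrome P450 genes, which make detoxifying and steroid-handling enzymes, averaged 45.3% at GD14.5 and 38.7% at GD8.5. By 25 points 9 of 92 were higher, 9.78% against 2.59% of all genes, and none lower. The 9 include Cyp2d10, Cyp2d12, Cyp2d34, Cyp2d9 and Cyp2d40, which lie near one another on chromosome 15. At equal covered length the difference of Cyp2d10 came to 5.82 points from 46.2, that of Cyp2d34 to 4.28 from 38.7 and that of Cyp2d9 to 0.959 from 25.3, while Cyp2d12 and Cyp2d40 kept 53.0 and 51.7 points. Olfactory receptor genes averaged 34.8% at GD14.5 and 31.0% at GD8.5. Of the 1110, 102 (9.19%) were higher by 25 points and 27 (2.43%) lower, against 2.59% and 0.504% of all genes.

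Hox cluster genes, which set position along the body axis, averaged 49.4% at GD14.5 and 44.3% at GD8.5. By 25 points 5 of 39 were higher, 12.8% against 2.59% of all genes, and none lower. Hoxb7 had 67.9% at GD14.5 and 34.1% at GD8.5, Hoxc9 89.7% and 57.2%, Hoxb8 79.9% and 52.7%, Hoxa4 67.9% and 36.5%, and Hoxc5 37.4% and 11.6%, at the same stages. All 4 clusters had a higher mean at GD14.5, with 46.5% and 41.3% in Hoxa, 58.8% and 55.6% in Hoxb, 60.3% and 51.6% in Hoxc, and 31.3% and 28.2% in Hoxd, GD14.5 before GD8.5. At equal covered length the mean difference turned to -1.67 points in Hoxb and -1.25 in Hoxc, and that of Hoxa4 to -1.38 points and of Hoxc5 to -0.63. Hoxb7 had 63.4% at GD5.5 and 42.3% at GD18.5, and its values did not separate early from late lists. Endothelial markers were higher in 8 of 14, by 25 points in Egfl7 (49.2% at GD14.5 and 19.5% at GD8.5) and Tie1 (82.3% and 56.3%), and the mesothelial marker Upk3b had 87.3% at GD14.5 and 51.7% at GD8.5. Egfl7 turned to -3.91 points at equal covered length, and Tie1 and Upk3b to -7.86 and -46.2 points with the −log10 p limit of 1.3.

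The lists where neither direction reached 25 points included Wnt ligands, receptors and antagonists (43 genes, 52.3% at GD14.5 and 50.2% at GD8.5), collagens (44 genes, 19.7% and 18.48%), Pax, Gata and Tbx factors (30 genes, 75.0% and 72.1%) and cadherins with protocadherins (92 genes, 21.3% and 20.4%). C2H2 zinc finger genes stayed low, at 8.72% at GD14.5 and 8.16% at GD8.5 over 394 genes, with 2 higher by 25 points and 1 lower. UDP-glucuronosyltransferase genes were 1 of 4 lists with a lower mean at GD14.5, 26.8% at GD14.5 and 29.4% at GD8.5, with 16 of 22 lower and none by 25 points. Chemokine genes averaged 38.1% at GD14.5 and 39.0% at GD8.5, and Ccl3 alone passed 25 points, with 37.6% at GD14.5 and 66.5% at GD8.5.

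By 10-kb bins, which do not depend on gene size, 579 of 263115 were gained, 0.22%, and 214 were lost, 0.0813%. The order turned at equal covered length, with 2389 gained and 2892 lost, and with the −log10 p limit of 1.3, with 1416 gained and 5932 lost. Between the 2 control lists of GD14.5 IS, 988 (0.376%) were higher by the same rule in the first list and 49 (0.0186%) lower. Single bins made up 522 of the 546 runs of gained bins and 170 of the 190 runs of lost bins, so most of them stood alone. Of the gained bins 45.8% overlapped a gene and of the lost bins 48.6%, against 44.7% of all bins. A promoter lay in 5.01% of gained and 4.67% of lost bins, against 6.68% of all.

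The lost bins carried the same order into lists that did not choose them. Their mean coverage in controls was 66.5% at GD5.5, 76.7% at GD8.5, 19.2% at GD14.5 IIS, 32.3% and 31.3% in the GD14.5 IS lists and 25.9% at GD18.5. For the comparison of GD18.5 IS with GD5.5 IIS, whose lists are both outside the choice, 155 of the lost bins were at least 50% covered at GD5.5, and 128 of these, 82.6%, were lower by 25 points at GD18.5. Of all 65186 bins that were at least 50% covered at GD5.5, 8.77% were lower by 25 points. The GD14.5 IS lists against GD5.5 gave 76.1% of these 155 bins in each, against 7.31% and 13.3% of all such bins. Over all 214 lost bins, with no filter at GD5.5, 66.8% were lower by 25 points at GD18.5, against 3.08% of all bins. In the GD14.5 IS lists the unfiltered shares were 59.3% and 61.7%, against 2.60% and 4.90% of all bins. The shares of gained bins that follow are also unfiltered. Gained bins averaged 31.2% at GD5.5, 16.3% at GD8.5, 72.8% at GD14.5 IIS, 52.9% and 36.8% in the GD14.5 IS lists and 59.2% at GD18.5, and 55.6% of them were higher by 25 points at GD18.5 than at GD5.5, against 5.70% of all bins. The GD14.5 IS lists against GD5.5 gave 42.1% of the gained bins in the first set, against 4.62% of all bins, and 19.3% in the Pdgfra-Cre set, against 1.71% of all. Later lists come from implantation sites and earlier ones from between them, so stage and site cannot be told apart in these values.

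The longest gained runs lie in or near named genes. At chr1:178850001-178920000, inside Kif26b, coverage was 70.7% at GD14.5 and 12.1% at GD8.5, and it was 18.0% at GD5.5 and 74.8% to 79.6% in the other late control lists. At chr13:49040001-49100000, inside the kinase gene Wnk2, it was 60.5% at GD14.5 and 9.08% at GD8.5. At chr9:121070001-121100000, inside Ulk4, it was 68.7% at GD14.5 and 2.68% at GD8.5. Another 30-kb run, chr4:137240001-137270000, with 69.0% at GD14.5 and 15.2% at GD8.5, lies 7.63 kb from Wnt4, a ligand gene of decidualization, and a 50-kb run at chr11:31710001-31760000, with 66.4% at GD14.5 and 12.9% at GD8.5, lies 38.1 kb from Bod1. The runs in Ulk4 and near Wnt4 were above both early values in every late control list. In the Pdgfra-Cre set's control list the Wnk2 run had only 10.5%, against 17.1% at GD5.5. The run near Bod1 had 22.4% there, against 26.4% at GD5.5.

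Lost runs besides Kcnma1 were in Dgki, Vcam1 and Adarb2. At chr6:36870001-36900000 in Dgki, a diacylglycerol kinase gene, coverage was 3.55% at GD14.5 and 59.6% at GD8.5, with 76.1% at GD5.5 and 19.3% at GD18.5. At chr3:116100001-116130000 over Vcam1 it was 28.2% at GD14.5 and 78.9% at GD8.5. At chr13:8310001-8340000 in Adarb2, a brain RNA-editing enzyme family gene, it was 47.1% at GD14.5 and 96.2% at GD8.5. In all 3 the GD5.5 value was above every late control value.

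The same stages are available from Pgr-Cre cKO mice, in which Kdm6b is deleted where progesterone receptor drives Cre, a deletion that is not limited to fibroblasts. That pair shares no list with the control pair. Peaks covered 685 Mb at GD14.5 and 705 Mb at GD8.5 in the cKO, a difference of -20.2 Mb, against 50.2 Mb in controls. The opposite signs were not seen with the −log10 p limit of 1.3, where the difference was -15.3 Mb in the cKO and -45.0 Mb in controls, and at or above a −log10 q of 2 it was 0.635 Mb and -20.9 Mb. In the cKO 23 genes (0.106%) were gained and 19 (0.0878%) lost, of which 3 gained and 0 lost genes were also called in controls; the 3 are 13.0% of the cKO list and 5.17% of the control list. For bins the cKO counts were 508 gained (0.193%) and 998 lost (0.379%). Shared were 11 gained bins, 2.17% of the cKO's and 1.90% of the controls', and 15 lost bins, 1.503% of the cKO's and 7.01% of the controls'.

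At the genes lost in controls the size in the cKO pair varied by gene. Vcam1 had 76.7% at GD14.5 and 75.9% at GD8.5 in cKO fibroblasts, against 27.6% and 76.1% in controls. Mt1 had 80.8% and 82.6% in cKO fibroblasts, against 7.33% and 48.3% in controls, and Fst had 76.6% and 77.3%, against 43.6% and 70.7%. Penk had 58.5% and 86.3% in cKO fibroblasts, against 21.5% and 100% in controls, and Kcnma1 had 40.5% and 59.2%, against 15.9% and 34.8%. The Kcnma1 difference was thus -18.7 points in the cKO and -18.9 in controls. It was larger in the cKO for Tox, with -27.9 points against -19.03 in controls, and for Slit3, with -17.4 against -12.3. Ptgs2, with 41.2% and 81.8% in cKO fibroblasts against 35.9% and 70.3% in controls, was lower at GD14.5 in both genotypes, as were Penk and Kcnma1. As a class the control losses were hardly lower in the cKO. Of the 109 genes lower by 25 points in controls, 12 were lower and 10 higher by 25 points there. Over all 21631 genes the cKO had 241 lower and 308 higher. The median cKO difference of the 109 was -0.65 points, against 0 over all genes. The lost bins as a group averaged 59.6% at GD14.5 and 69.1% at GD8.5 in the cKO, against 19.2% and 76.7% in controls, where the control values chose the bins. Of the lost bins at least 50% covered at GD5.5 in the cKO (168), 72 or 42.9% were lower by 25 points in its GD18.5 list, against 8.20% of all such bins. Over all 214 lost bins, with no such filter, it was 36.4%, against 2.79% of all bins. Whether the genotypes differ beyond the spread between animals was not tested, since each value is 1 pooled list.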

How the data were processed

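H3K27me3 CUT&RUN was measured on 3 samples per group. Per the labels and the submitters' processing notes, the authors used STAR 2.7.5c on mm10, Picard, samtools 1.10 and bedtools 2.29.1, and macs2 2.2.7.1 for peaks. Peak names in the deposited lists say that each list merges a group's samples. The names of the lists hold short tags that look like calling settings, which the sources used here do not explain. Calling cutoffs are not otherwise given, nor are the use of input libraries as background and read depth. The authors' lists give each peak a fold (ratio) over local background and −log10 p and −log10 q values, used here to describe and filter peaks within a list.

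Overlapping peaks were merged with Python 3.11.15, numpy 2.4.6 and pandas 2.3.3. The covered percent was computed for 21631 protein-coding genes (RefSeq, GRCm38.p6, 2-kb flanks) and 263115 bins of 10 kb on chromosomes 1 to 19 and X; promoter windows come from 17251 of the genes. Figures used matplotlib 3.10.9. The arithmetic was tested on simulated intervals. Genes and bins past 50 points were called, with no test. To bring lists to one covered length, the peaks of lowest p were kept up to 80% of the shortest list. Named genes are the 10 largest gains and losses in kb that pass 50 points both ways (10 gains and 2 losses were found), and up to 4 members with the largest differences of each of 44 gene lists; other genes were picked with their values in view. Runs of called bins may bridge 1 uncalled bin, and the 5 longest each way are named. Members, lists and rules were all chosen with earlier results of these data known. Alternatives were −log10 p and q limits, other flanks, equal covered length, centring, a 25-point rule, autosomes and a 50% overlap of peaks. The 4 B6CBAF1/J lists were not used here.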

Additional observations from a re-analysis of the deposited data

Results flagged for a closer look

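Some values ran in opposite directions in the cKO and the control pair, GD14.5 minus GD8.5; these differences between genotypes were not tested, since each side is 1 pooled list. Covered length differed by -20.21 Mb in Pgr-Cre cKO fibroblasts and by 50.22 Mb in controls, but both differences were below 0 among peaks at or above a −log10 p of 1.3, at -15.3 Mb in the cKO and -45.0 Mb in controls. Dbpht2 differed by 37.58 points in the cKO and by -52.62 points in controls. Osr1, a zinc finger transcription factor gene of mesenchyme, differed by 40.65 points in the cKO and by -25.75 points in controls. Hoxa4 differed by -40.82 points in the cKO and by 31.35 points in controls. Hsd17b1, an estradiol-forming enzyme gene, differed by -25.01 points in the cKO and by 26.35 points in controls. In controls Hsd17b1 came to 14.4 points with 5-kb flanks and to 0 at equal covered length, and Hoxa4 to -1.38 at equal covered length. With the −log10 p limit the control differences of all 4 genes were 0.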

How the results depend on the processing

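Genes gained, 58 as reported, were 124 at equal covered length, 96 with a −log10 p of at least 1.3, 2 with a −log10 q of at least 2, 13 with 5 kb flanks, 276 with none and 560 at 25 points; genes lost, 9 as reported, were 70, 216, 344, 1, 67 and 109 in the same order. Gained bins, 579 as reported, were 2389 at equal covered length, 1416 and 10 with the p and q limits and 10749 at 25 points, and lost bins, 214 as reported, were 2892, 5932, 2097 and 4362. The difference in covered length turned from 50.22 Mb to -45.05 Mb with the p limit and -20.92 Mb with the q limit, and was 46.95 Mb on autosomes. The mean gene difference, 2.109 points, came to 0.8803 when lists had equal covered length, -0.8611 and -1.849 with the p and q limits, 2.099 with 5 kb flanks, 2.415 with none and 2.027 on autosomes. Requiring 50% of a peak to overlap lowered the shared share from 67.83% to 51.18% of GD14.5 peaks and from 77.3% to 61.08% of GD8.5 peaks; at equal covered length these were 65.18% and 66.95%. Among 59 single genes, none still differed by 25 points in the same direction with the q limit. With the p limit 9 did, though their values could shift, and many of the 59 have no peak past that limit. With the p limit Mycn turned to 14.95, Asprv1 to -11.25, Timp4 to -1.539, Upk3b to -46.21 and Tie1 to -7.86 points; at equal covered length Hoxa4 turned to -1.378, Cyp4a29 to -6.232 and Egfl7 to -3.91. The cause of these reversals was not tested. No paired analysis was possible because each list pools its 3 samples, and for the same reason no replicate could be left out. Read depth is unknown and its part in weak peaks called at a single stage was not tested; coverage also says nothing of signal height within a peak.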

Other observations

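The X chromosome was the most covered chromosome in both control lists. Its mean gene coverage was 50.9% at GD14.5 and 46.98% at GD8.5 over 966 genes, and 86.1 Mb at GD14.5 and 82.8 Mb at GD8.5 lay inside peaks. At equal covered length the order turned, with 49.1 Mb at GD14.5 and 52.4 Mb at GD8.5. Among autosomes the ratio of covered length at GD14.5 over GD8.5 ran from 1.05 on chromosome 15 to 1.14 on chromosome 19, against 1.04 on the X. The X-linked Samt, Magea, Xlr and Rhox genes, testis and placenta families that lie in arrays, averaged 46.99% at GD14.5 and 41.7% at GD8.5. By 25 points 4 of 58 (6.90%) were higher and 1 (1.72%) lower, against 2.59% and 0.504% of all genes. The 4 were Rhox3c, Rhox3g, Rhox9 and Xlr3c, and the 1 was Samt2.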
